A study of Mus musculus with 6 samples.

Results

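The transcripts described here are 10 long noncoding RNAs, namely Malat1, Neat1, Miat, Kcnq1ot1, Gas5, Snhg1, Snhg5, Snhg8, Snhg12 and Epb41l4aos, taken by gene name from a table of 15954 genes measured in mouse microglia. All 10 names were present, each on its own row. They were taken by name, and the list was drawn up with earlier results of these data known. Microglia came from LACTB ED mice, which are homozygous for S162I, a replacement of the catalytic serine of the mitochondrial enzyme LACTB, and from WT mice with the unaltered enzyme. The mice were 3 months old, with 3 mice and 3 libraries per genotype. The ED allele was built as a conditional knock-in in C57BL/6J embryonic stem cells, and the sources used here give neither the Cre line, if any, nor the strain of these WT mice. Magnetic beads against CD11b, which other myeloid cells also display, drew the cells out of dissociated brain, and polyadenylated RNA was sequenced.

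Long noncoding RNAs act as RNA molecules and not as templates for protein. Malat1 gathers in nuclear speckles, the compartments that store splicing proteins. Neat1 is the scaffold of paraspeckles, nuclear bodies that hold RNA-binding proteins. Miat, also called Gomafu, is a nuclear RNA known from retina and neurons. Kcnq1ot1 is made from the paternal chromosome and silences imprinted genes around Kcnq1. The other members are host transcripts, whose introns carry small nucleolar RNAs (snoRNAs), the guides for chemical modification of ribosomal RNA. Once the snoRNAs are cut out, the spliced host exons of Gas5 and its relatives are exported and can be removed by nonsense-mediated decay, which depends on translation. Several of these hosts begin with a pyrimidine tract, the 5′ TOP element, which they share with the mRNAs for ribosomal proteins and translation factors.

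The annotated starts of the hosts are shown because this tract is the known mark of the TOP class. Of the 10 members, 8 matched an entry by symbol in the RefSeq promoter table (GRCm38.p6), all but Neat1 and Epb41l4aos. Each line gives 50 bases, 20 before the annotated start and 30 from it on, read 5′ to 3′ on the gene's strand. Capitals mark an unbroken run of at least 5 pyrimidines (C or T) whose first base lies within 5 bases of the start, searched on the gene's strand only. Malat1, which is no host, is given for contrast.
Gas5, downstream start: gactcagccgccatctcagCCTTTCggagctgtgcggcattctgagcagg
Snhg12: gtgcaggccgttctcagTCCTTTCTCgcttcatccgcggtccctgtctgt
Snhg1: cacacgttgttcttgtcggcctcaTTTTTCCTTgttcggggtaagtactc
Snhg8: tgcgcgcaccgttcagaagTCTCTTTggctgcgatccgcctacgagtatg
Snhg5: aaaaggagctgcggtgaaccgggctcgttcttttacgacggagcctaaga
Malat1: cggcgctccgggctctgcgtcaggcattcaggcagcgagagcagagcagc
These windows lie on GRCm38.p6 at chr1:161035146-161035195 (plus strand) for Gas5, chr4:132308658-132308707 (plus) for Snhg12, chr19:8723467-8723516 (plus) for Snhg1, chr3:123508307-123508356 (minus) for Snhg8, chr9:88522868-88522917 (minus) for Snhg5 and chr19:5802643-5802692 (minus) for Malat1. The run was 6 bases long for Gas5, 9 for Snhg12, 9 for Snhg1 and 7 for Snhg8. Snhg5 had no run by this rule. Gas5 has 2 annotated starts in the table, and the upstream start had no run either. Of the 6 host starts 4 held a run (66.7%), against 22.2% of the 14585 starts of genes in the expression table. Gas5 counts with both of its starts here. The rule marked the translated TOP mRNAs described further on little more often than all genes, at 3 of their 12 starts (25%). Among the other members, the Miat start held a run of 7 bases while those of Malat1 and Kcnq1ot1 held none. A run is a match of letters near an annotated start and not a measured start of transcription.

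Gene models were taken from GENCODE M21 on GRCm38. Malat1 (ENSMUSG00000092341, chr19:5795690-5802672) and Neat1 (ENSMUSG00000092274, chr19:5824708-5845478) are neighbours on the minus strand of chromosome 19. Gas5 (ENSMUSG00000053332, chr1:161034422-161038539) lies on the plus strand with 10 annotated snoRNA genes inside it. Snhg1 (ENSMUSG00000108414, chr19:8723475-8726443, plus) holds 8, among them Snord22. Snhg12 (ENSMUSG00000086290, chr4:132308623-132311024, plus) holds 5, and Snhg5 (ENSMUSG00000097195, chr9:88521050-88522929, minus) holds 2, Snord50a and Snord50b. Snhg8 (ENSMUSG00000104960, chr3:123507552-123508404, minus) holds 1, Snora24, and Epb41l4aos (ENSMUSG00000087590, chr18:33794892-33795986, plus) holds 1. Miat (ENSMUSG00000097767) lies at chr5:112213228-112229395 and Kcnq1ot1 (ENSMUSG00000101609) at chr7:143203458-143296549, each on the minus strand. Kcnq1ot1 is an unspliced antisense transcript within the Kcnq1 gene, and Kcnq1 itself was not among the genes analysed here.

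Values are normalized read counts, scaled by the authors with 1 factor for each library. Reads in the listed genes were inferred from the spacing of the values. They came to 26024924 to 28122336 in ED libraries and 23394686 to 27432421 in WT libraries. Lactb itself averaged 1491 ± 32.8 in ED and 1475 ± 85.0 in WT microglia (SD, n = 3 each), and a total per gene cannot show which allele it came from. All 10 microglia markers, Csf1r and Cx3cr1 among them, were present in every library. Transcripts from 23 mitochondrially encoded genes made up 1.04% to 1.24% of all values in ED and 1.07% to 1.13% in WT libraries.

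Only some of these RNAs were abundant in microglia. Malat1 exceeded 99.6% of the genes in the table by its mean over the 6 libraries, Neat1 97.4% and Gas5 93.0%. Snhg12, Snhg1, Snhg8 and Snhg5 stood above 70.9%, 67.7%, 65.6% and 55.8% of genes. Kcnq1ot1, Epb41l4aos and Miat lay in the lower part of the table, above 40.2%, 34.7% and 28.1% of genes. The 10 transcripts together made up 0.183% to 0.211% of all values in ED and 0.130% to 0.198% in WT libraries, with WT replicate 2 the lowest.

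Divided by the length of annotated exon, the order changed. Malat1 led with 4008 to 5528 normalized reads per kilobase in ED and 3074 to 4614 in WT libraries. Gas5 followed with 1071 to 1354 in ED and 919 to 1545 in WT, and Snhg8 with 986 to 1090 in ED and 961 to 1162 in WT. The ranges of Gas5 and Snhg8 overlap, so their order is not set beyond the spread between mice. Snhg8 has 853 bases of annotated exon, and this short length lifts it from the middle of the table to the level of Gas5. For Snhg8, Snhg12 and Snhg1 the union of annotated exons covers the whole gene, including the stretches that hold snoRNAs. Values per kilobase of their spliced RNA were not measured. Snhg12, Neat1, Snhg1, Epb41l4aos and Snhg5 followed at means of 475, 449, 330, 317 and 313 per kilobase, with overlapping ranges. Miat stood at 6.83 to 11.8 and Kcnq1ot1 at 1.38 to 3.05 over the 6 libraries. The annotated exon is 20771 bases for Neat1 and 93092 bases for Kcnq1ot1. Neat1 makes a short polyadenylated form and a long form that is not polyadenylated. The Neat1 value per kilobase is divided by the long annotated exon, and the forms are not told apart here. The effect of oligo-dT selection on that value was not tested. How oligo-dT selection acts on the value of Malat1, whose 3′ end is cut by an enzyme, was not tested.

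**Figure D1:**
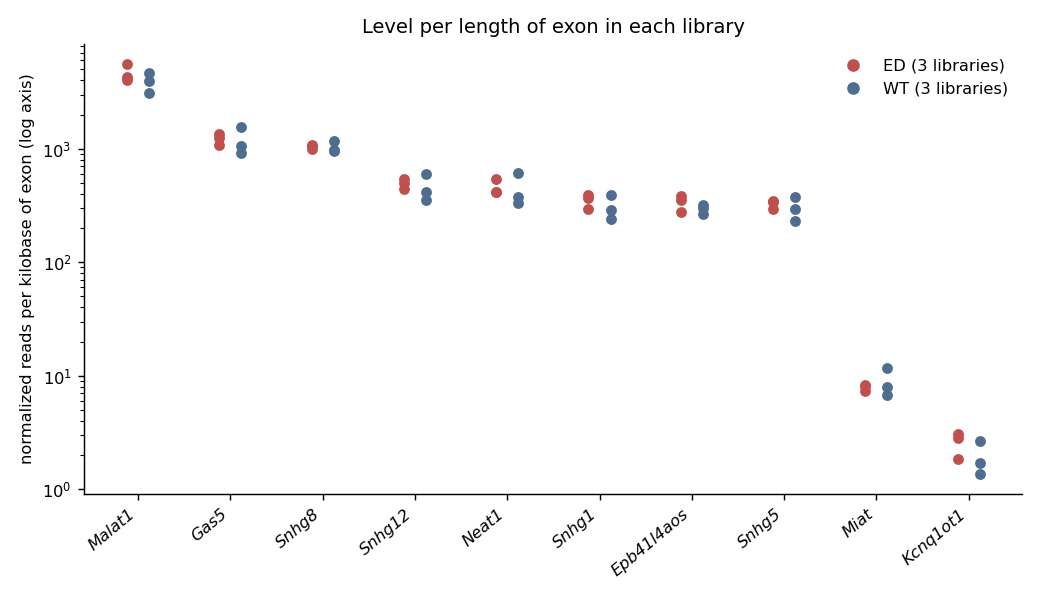
Normalized reads per kilobase of annotated exon (log axis) for each transcript, ordered by mean, with ED libraries left of WT libraries and 1 point per library. Malat1 lies above all others at 3074 to 5528, a middle group from Gas5 to Snhg5 spans 231 to 1545, and Miat and Kcnq1ot1 lie at 1.38 to 11.8.

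The comparison of ED with WT asks which transcripts of microglia differ when LACTB cannot act as an enzyme. The mean was higher in ED for 9 of the 10 transcripts and lower for Miat, and their median log2 fold change was 0.14. Over all genes 48.6% had a higher mean in ED, and the median was 0.00. None of the 10 differences exceeded the spread between mice. With limma, 0 of 10 passed at an adjusted p of 0.05 (smallest adjusted p = 1.00), and 0 of 10 had an unadjusted p under 0.05. Of all 15954 genes 0 passed (0%), and 290, or 1.82%, had an unadjusted p under 0.05. The ED and WT values overlapped for all 10 transcripts, while they did not for 5.74% of all genes. Whole microglial preparations were sequenced, so fewer cells holding a transcript and less of it per cell cannot be told apart.

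Malat1 had 38600, 30155 and 27987 normalized reads in ED libraries 1 to 3, against 32217, 21464 and 27459 in WT libraries 1 to 3. All 3 ED mice lay above the WT mean, but WT replicate 1 stood above 2 of them. Malat1 averaged 32247 ± 5607 in ED and 27046 ± 5388 in WT (SD, n = 3 each). The log2 fold change was 0.26 (SE 0.17, 95% interval -0.12 to 0.64; limma adjusted p = 1.00), or 1.20-fold, and the interval of the fold runs from 0.920 to 1.56. An exact two-sided permutation test gave p = 0.4, where 3 against 3 mice allow no p under 0.1. The log2 fold change of Malat1 was 0.12 without ED replicate 1, its highest library. It ranged from 0.10 to 0.40 over all fits with 1 library left out.

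Neat1 had 8552, 8620 and 11356 normalized reads in ED libraries, against 7799, 6946 and 12706 in WT libraries. The highest and the lowest value were thus both WT, and all ED values lay between them. Its log2 fold change was 0.09 (SE 0.21, 95% interval -0.37 to 0.56; limma adjusted p = 1.00). Malat1 and Neat1 lie next to each other in the genome but did not move together across mice. The ratio of Malat1 to Neat1 reads was 4.51, 3.50 and 2.46 in ED libraries and 4.13, 3.09 and 2.16 in WT libraries. The ranges of the ratio in ED and WT overlapped over most of their length.

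Kcnq1ot1 had the largest log2 fold change of the 10. It had 262, 284 and 171 normalized reads in ED libraries, against 250, 128 and 160 in WT libraries. ED replicate 3 fell among the WT values and WT replicate 1 among the ED values. The log2 fold change was 0.44 (SE 0.26, 95% interval -0.15 to 1.02; limma adjusted p = 1.00), and an exact two-sided permutation test gave p = 0.2. Its spread within a genotype (log2 SD 0.44) was larger than that of 86.9% of genes. The unadjusted limma p of Kcnq1ot1 was under 0.05 without WT replicate 1 (log2 fold change 0.70) and without ED replicate 3 (0.66), with a limma adjusted p of 1.00 in each fit. Without WT replicate 1, 1.58% of all genes were under 0.05 and 0.852% were so with a higher mean in ED. Without ED replicate 3 these shares were 2.38% and 0.621%.

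Miat had 76.8, 75.1 and 68.4 normalized reads in ED libraries, against 63.5, 73.4 and 109 in WT libraries. The higher WT mean came from WT replicate 3, and the other WT values lay at or below those of ED replicates 1 and 2. The log2 fold change was -0.12 (SE 0.23, 95% interval -0.63 to 0.39; limma adjusted p = 1.00), and it was 0.10 without WT replicate 3. The sum of 12 neuron markers was 2512 to 3429 in ED and 3791 to 4092 in WT libraries, with a lower mean in ED for 12 of 12 and none at 0 in any library. With limma 0 of the 12 passed after adjustment, and 8 had an unadjusted p under 0.05, against 1.82% of all genes. Their part in the level of Miat was not tested.

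Among the host transcripts, Gas5 was the highest. It had 4026, 4721 and 5093 normalized reads in ED libraries, against 3948, 3456 and 5809 in WT libraries. WT mice spanned a wider range (1.68-fold from lowest to highest) than ED mice (1.27-fold). The log2 fold change was 0.10 (SE 0.17, 95% interval -0.29 to 0.49; limma adjusted p = 1.00). Snhg12, which hosts Snora44 and Snord99, repeated this pattern at a lower level. It had 1061, 1192 and 1296 in ED libraries, against 1008, 848 and 1440 in WT libraries (log2 fold change 0.14, SE 0.17). The ratio of Gas5 to Snhg12 reads stayed at 3.80 to 3.96 in ED and 3.92 to 4.08 in WT libraries.

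Snhg1 had 883, 1094 and 1151 normalized reads in ED libraries, against 863, 723 and 1164 in WT libraries. Its log2 fold change of 0.20 (SE 0.17, 95% interval -0.17 to 0.58; limma adjusted p = 1.00) was the largest among the hosts. Snhg5 had 514, 595 and 587 in ED libraries, against 507, 399 and 650 in WT libraries (log2 fold change 0.15, SE 0.16). For Gas5, Snhg12, Snhg1, Snhg5 and Snhg8 alike, WT replicate 3 was the highest library and WT replicate 2 the lowest.

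Snhg8 varied the least and Epb41l4aos had other extremes. Snhg8 was the steadiest of the 10, with 894, 930 and 841 normalized reads in ED libraries, against 825, 820 and 991 in WT libraries. Its spread within a genotype (log2 SD 0.12) was smaller than that of most genes, with 30.5% of genes below it. The log2 fold change was 0.02, and the 95% interval of -0.20 to 0.25 leaves out a change of more than 1.19-fold up or to less than 0.868-fold. Epb41l4aos had 151, 166 and 119 in ED libraries, against 115, 137 and 128 in WT libraries, with the top 2 values in ED and the lowest in WT replicate 1. The log2 fold change was 0.19 (SE 0.17, 95% interval -0.19 to 0.57; limma adjusted p = 1.00).

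**Figure D2:**
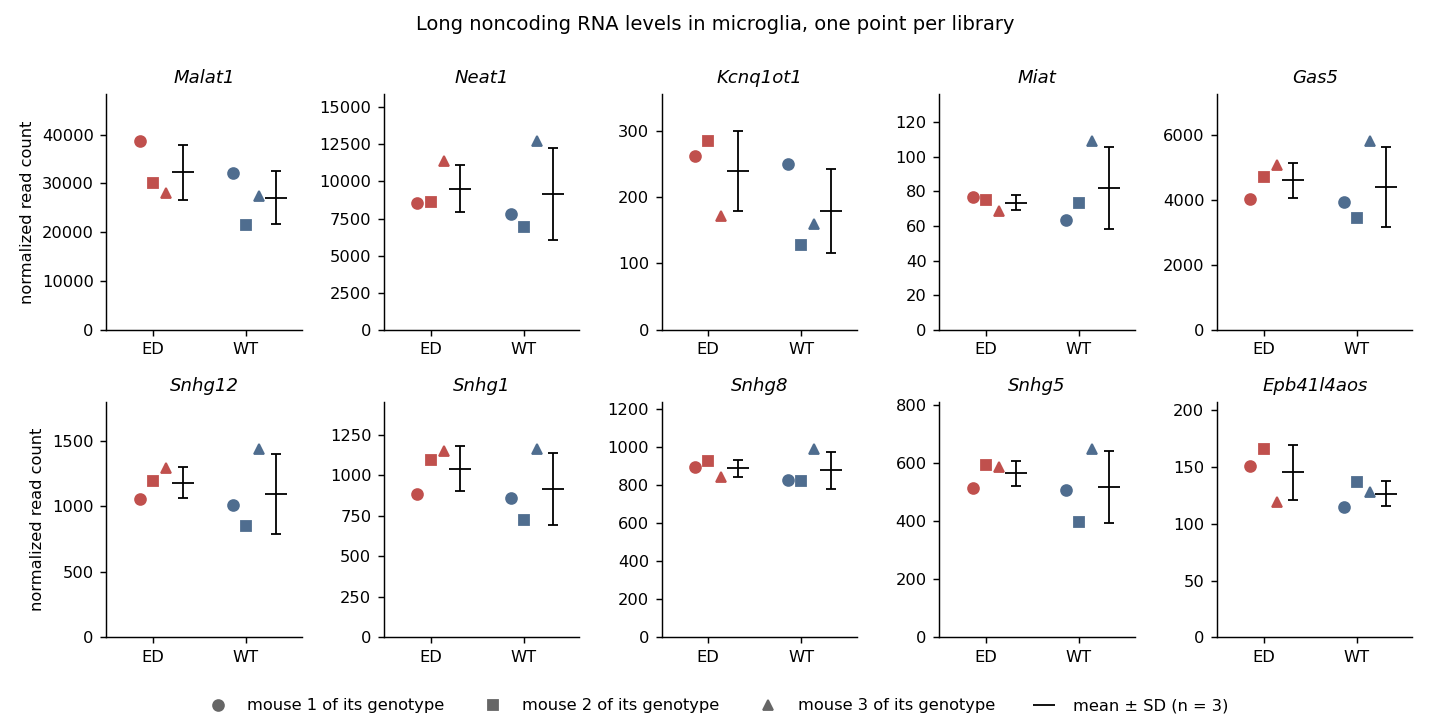
Normalized read count of each transcript, ED left of WT, with 1 point per library and the mean ± SD of 3 mice in black. ED and WT values overlap in all 10 panels, and WT replicate 3 (triangle) stands highest for Gas5, Snhg12, Snhg1, Snhg5, Snhg8, Neat1 and Miat.

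Differences between mice were larger than those between genotypes. Relative to its own mean over the 6 libraries, WT replicate 2 was the lowest library for 8 of the 10 transcripts and WT replicate 3 the highest for 7. On the log2 scale WT replicate 2 deviated by -0.36 for Gas5, -0.41 for Snhg12, -0.42 for Snhg1, -0.42 for Snhg5, -0.44 for Malat1 and -0.64 for Kcnq1ot1. WT replicate 3 deviated by 0.39 for Gas5, 0.36 for Snhg12, 0.48 for Neat1 and 0.51 for Miat, but by -0.09 for Malat1 and -0.33 for Kcnq1ot1. The transcripts thus fell into different profiles. Gas5, Snhg12, Snhg1, Snhg5 and Neat1 were above their mean in WT replicate 3 and ED replicate 3 and below it in ED replicate 1. Malat1 and Kcnq1ot1 went the other way in these libraries, at 0.40 and 0.39 in ED replicate 1. Kcnq1ot1 was highest in ED replicate 2 (0.50). All of these transcripts were low in WT replicate 2, so that library does not separate the profiles.

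The likeness of these profiles was measured as the root mean square difference of centred log2 values over the 6 libraries. Gas5 and Snhg12 differed by 0.033, Snhg1 and Snhg12 by 0.0596, and Snhg5 and Snhg12 by 0.0615. Neat1 was nearest to Gas5 among the members (0.098), and farthest from Kcnq1ot1 (0.556). Its genomic neighbour Malat1 had Neat1 as its own farthest member (0.379). Malat1 and Kcnq1ot1 were nearest to each other, at a looser 0.243. Over the whole table, the 3 genes nearest to Gas5 were Snhg12, Acp6 and Zfas1, the last of these another snoRNA host. Zfas1 was also the nearest gene to Snhg12 (0.0294), ahead of Tle2 (0.0312). Tmem191c (0.0234) and Wdr13 (0.0433) lay closer to Snhg5 than Zfas1 did (0.0501). The snoRNA gene Snord49a was the nearest to Snhg1 (0.0467), followed closely by Ing4 (0.0479) and Tle2 (0.0518). Snhg8 had Thop1 (0.0208), BC055324 (0.0221) and Smim10l1 (0.0225) as its nearest genes. Gm10575 was the nearest to Neat1 (0.0412), ahead of Luc7l3 (0.0472), which encodes a splicing protein, and Zfp692 (0.0475). Whether genes of similar profile share a function was not tested. The nearest to Malat1, Tsacc, was no closer than 0.0713.

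Other snoRNA hosts were compared in the same fit. Of 11 further host genes measured, 9 had a higher mean in ED, against 48.6% of all genes, and 2 a lower one. The median log2 fold change of the 11 was 0.15. With limma over all genes 0 passed, and 1 of 11, Snhg11, had an unadjusted p under 0.05, against 1.82% of all genes. Without WT replicate 2, 5 of the 11 had a higher mean in ED, against 48.3% of all genes. Zfas1 had 917, 1044 and 1129 normalized reads in ED libraries, against 907, 758 and 1219 in WT libraries. Snhg17 had 929, 938 and 1085 in ED libraries, against 825, 612 and 1079 in WT libraries. The mean deviation of these 11 genes was 0.29 in WT replicate 3, -0.18 in WT replicate 2 and -0.16 in WT replicate 1. It was -0.12, -0.03 and 0.20 in ED replicates 1 to 3. The 2 with a lower mean in ED were Snhg11 and Snhg14, known as neuronal hosts. Snhg11 had 63.7, 75.1 and 107 in ED libraries, against 144, 130 and 191 in WT libraries (log2 fold change -0.93, SE 0.23; limma adjusted p = 1.00), and Snhg14 had 14.1, 32.1 and 32.8 in ED libraries, against 43.0, 38.2 and 38.3 in WT libraries. Snhg11 is itself one of the 12 neuron markers that were lower in ED, so that count is not independent of it.

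Of 20 other long noncoding RNAs, 12 had a higher mean in ED, against 48.6% of all genes, and 8 a lower one. Among the 20, 0 passed the test over all genes. Their median log2 fold change was 0.11, and 9 to 13 had a higher mean in ED when 1 library was left out. Tug1 had 3438, 3766 and 3925 normalized reads in ED libraries, against 3581, 2637 and 4168 in WT libraries, and Firre, which is made from the X chromosome and escapes its silencing, had 4268, 4373 and 4968 in ED libraries, against 4129, 2807 and 5166 in WT libraries. In these as well the lowest value was WT replicate 2 and the highest WT replicate 3. Unadjusted p was under 0.05 for 3 of the 20, against 1.82% of all genes. These were Meg3 (log2 fold change -0.46) and Rian (-0.44), maternally expressed neuronal RNAs of the same imprinted cluster, and Pvt1 (0.27), the neighbour of Myc. The limma adjusted p was 1.00 for each. Meg3 is also one of the neuron markers, so it is counted in both lists. Pvt1 had 250, 259 and 247 in ED libraries, against 212, 195 and 222 in WT libraries, with no overlap. Other genes of the 20, Meg3 among them, had no overlap in the lower direction. Of all genes 5.74% had no overlap in either direction.

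Genes for the proteins that work with these RNAs were compared in the same fit. Of 23 nuclear speckle and splicing protein genes 19 had a higher mean in ED (median log2 fold change 0.08), against 48.6% of all genes. With limma 0 of the 23 passed the test over all genes. An unadjusted p under 0.05 was found for 0 of the 23, against 1.82% of all genes. The mean deviation of the 23 was 0.22 in WT replicate 3 and -0.22 in WT replicate 2. The speckle scaffold gene Srrm2 had 20882, 22570 and 29345 normalized reads in ED libraries, against 23600, 13690 and 28984 in WT libraries. Without WT replicate 2, 6 of the 23 had a higher mean in ED, against 48.3% of all genes. Of 22 paraspeckle protein genes 13 had a higher mean in ED (median 0.03), or 7 without WT replicate 2.

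Of 17 translated TOP mRNAs other than ribosomal proteins, 16 had a lower mean in ED (median log2 fold change -0.07), as had 8197 of all 15954 genes, with 0 past the test over all genes or at an unadjusted p under 0.05. Their mean deviation was 0.14 in WT replicate 2, where the hosts were lowest, and -0.21 in ED replicate 3. Eef1a1, an elongation factor gene, had 110833, 110001 and 84915 normalized reads in ED libraries, against 111570, 108344 and 98744 in WT libraries. Without ED replicate 3, 12 of the 17 had a higher mean in ED, and without WT replicate 2, 7 did. Genes for snoRNA-binding proteins were close to level, with 7 of 16 at a higher mean in ED (median -0.03). That number was 3 without ED replicate 1, 4 without WT replicate 1 or WT replicate 3, and 10 without WT replicate 2. Fibrillarin (Fbl), the methyltransferase that box C/D snoRNAs guide, had 2353, 2260 and 2314 in ED libraries, against 2158, 2693 and 2296 in WT libraries. Of 21 nonsense-mediated decay genes 13 had a higher mean in ED (median 0.01), against 48.6% of all genes. Without ED replicate 3 or WT replicate 2, 9 of the 21 did. Upf1, the central helicase of that pathway, had 4674, 4879 and 5796 in ED libraries, against 4787, 4623 and 5480 in WT libraries. In neither of these 2 lists did a gene have an unadjusted p under 0.05.

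**Figure D3:**
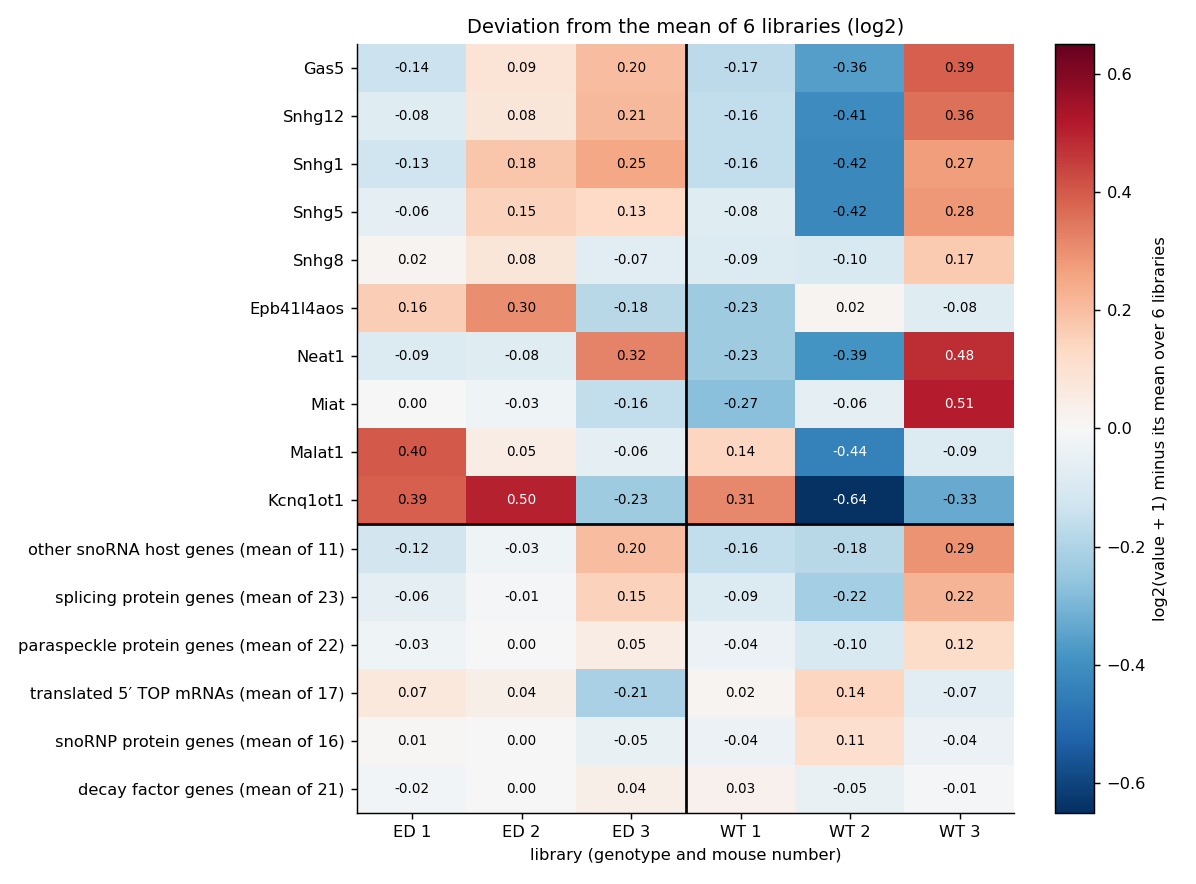
Deviation of each transcript (upper rows) and of the mean of each companion gene list (lower rows) from its own mean over 6 libraries, as log2(value + 1), with ED libraries left of WT libraries. Red is above and blue below that mean. WT replicate 2 is blue and WT replicate 3 red for Gas5, Snhg12, Snhg1, Snhg5 and Neat1, while translated TOP mRNAs are at 0.14 in WT replicate 2.

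Marker genes of microglia, of other cells and of tissue handling also varied between libraries. Endothelial markers (8 of 8 measured, none at 0 in any library) summed to 3107 to 3985 in ED and 3208 to 6383 in WT libraries, the highest in WT replicate 2, where their mean deviation was 0.93. Genes of the response to tissue dissociation (12 of 12 measured) summed to 146154 to 237655 in ED and 202718 to 298233 in WT libraries, again highest in WT replicate 2 (mean deviation 0.21). They lay farther out in ED replicate 1, the library with the most Malat1, where the sum was lowest and the mean deviation -0.48. Monocyte and neutrophil markers (7 of 8 measured, with Ly6g not among the genes analysed here) had mean deviations of 1.41 in ED replicate 3 and 0.78 in WT replicate 2. They deviated by -1.13 in ED replicate 2 and by -0.86 in WT replicate 3. The 10 microglia markers summed to 934815 to 1010242 in ED and 934369 to 1115860 in WT libraries, highest in WT replicate 2 (mean deviation 0.12). Of these 10, 8 had a lower mean in ED, as had 8197 of all 15954 genes. An unadjusted limma p under 0.05 was found for 0 of the 10. With 1 library left out, 1 to 6 of them had a higher mean in ED. Border macrophage markers (7 of 7 measured) had mean deviations of 0.20, -0.18 and 0.11 in ED replicates 1 to 3. In WT replicates 1 to 3 these were -0.06, -0.17 and 0.10. Of these 7, 6 had a higher mean in ED (median log2 fold change 0.12), against 48.6% of all genes. An unadjusted limma p under 0.05 was found for 0 of the 7, and 4 to 7 were higher in ED with 1 library left out. The part of all these markers in the level of the long noncoding RNAs was not tested.

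The genotype difference moved with single WT mice. Without WT replicate 3 all 10 transcripts had a higher mean in ED, against 47.5% of all genes in that fit, and their median log2 fold change was 0.32. The unadjusted limma p was then under 0.05 for 5 of them, Neat1 (0.36), Gas5 (0.31), Snhg1 (0.39), Snhg5 (0.33) and Snhg12 (0.35). Of all genes 5.72% were under 0.05, and 3.78% were so with a higher mean in ED, while 0 passed after adjustment (smallest limma adjusted p = 0.119). Without WT replicate 2, by contrast, 4 of the 10 had a higher mean in ED, against 48.3% of all genes, and the median was -0.03. Neat1 (-0.08), Gas5 (-0.06), Snhg12 (-0.03), Snhg8 (-0.03) and Snhg5 (-0.02) then had a lower mean in ED. Malat1 kept a higher mean in ED without any library in turn, with log2 fold changes of 0.10 to 0.40, as did Kcnq1ot1 (0.22 to 0.70), Epb41l4aos (0.09 to 0.32) and Snhg1 (0.05 to 0.39).

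**Figure D4:**
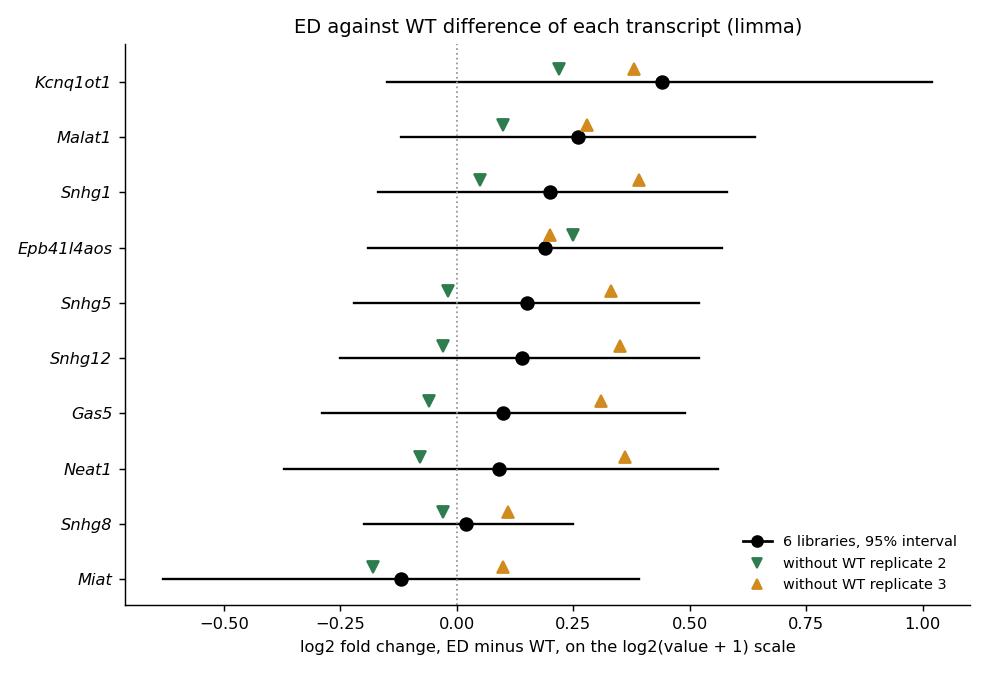
Log2 fold change, ED minus WT, of each transcript with its 95% interval from limma over 6 libraries (black), and its value without WT replicate 2 (green) and without WT replicate 3 (orange). Every interval from the 6 libraries spans 0, and leaving out WT replicate 3 moves Neat1 to 0.36 while leaving out WT replicate 2 moves it to -0.08.

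Genes next to these transcripts were compared as well. The 19 protein-coding neighbours comprised 7 with a higher mean in ED, against 48.6% of all genes, and 12 with a lower one. Their log2 fold changes were -0.48 to 0.55 around a median of -0.04, and 0 had an unadjusted limma p under 0.05. Frmd8, which lies 4224 bases from Neat1, had a log2 fold change of -0.06 (SE 0.08). Slc3a2, an amino acid transporter gene which lies 106 bases from Snhg1 on the opposite strand, averaged 11055 ± 901 in ED and 11533 ± 1788 in WT (SD, n = 3 each). Zbtb37, a zinc finger gene on the opposite strand, overlaps the Gas5 gene and averaged 769 ± 82.4 in ED and 694 ± 184 in WT, with its lowest value of 486 in WT replicate 2, as for Gas5. No source used here says whether counting took strand into account. Reads of Gas5 and Zbtb37, or of Kcnq1ot1 and Kcnq1, therefore cannot be told apart where they overlap. Of the snoRNA genes inside the hosts, Snora16a in Snhg12 was the 1 in the table, at 67.5, 102 and 97.5 in ED libraries and 61.3, 51.9 and 132 in WT libraries, and its reads can also count the host. In the domain that Kcnq1ot1 silences, Cdkn1c, a cell cycle inhibitor gene, averaged 423 ± 39.6 in ED and 507 ± 84.6 in WT (log2 fold change -0.25, limma adjusted p = 1.00). Of 14 genes of the domain 8 had a higher mean in ED (median 0.02), against 48.6% of all genes. Of the 14, 5 to 10 did when 1 library was left out, fewest without WT replicate 1 and most without WT replicate 2.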

How the data were processed

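RNA of CD11b-selected microglia from 3 ED and 3 WT mice was measured as 1 poly(A)-selected library per mouse, with group and replicate as the titles give them. Libraries are labelled as separate mice. Tools in the submitters' processing notes are Trimmomatic 0.36, STAR 2.5.2b, featureCounts of Subread 1.5.2, DESeq2 with no version given, and build GRCm38. The study's methods name a human build and partly other tools for its RNA-seq, without a separate statement for mouse. The deposited signal values are read counts that the authors scaled by 1 factor for each library, as their equal steps show (100% of values whole within 0.001 of a step). ED libraries held no value at 1 read, so their step is inferred from spacing and no count model was fitted. The deposited table also holds the authors' own log2 fold changes and p-values, which were not used. It lists genes with a mean of at least 9.87, and 15922 IDs matched GENCODE M21.

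ED was compared with WT on log2(value + 1) with limma 3.58.1 in R 4.3.3 (genotype only, mean-variance trend, all 6 libraries), with Benjamini-Hochberg adjustment over 15954 genes. Fold changes are on that scale and understate changes of low genes. A 3 against 3 exact permutation test (scipy 1.17.1) was added. Lengths are the union of annotated exons. The procedure was tested on simulated data. Alternatives were pseudocounts of 0.5 and 10, genes with a mean of at least 50, upper-quartile and TMM rescaling, no trend, a block for mouse number, and each library left out. The members and lists were chosen with earlier results of these data known. All members are named, and of each list the 3 highest genes and those with an unadjusted p under 0.05 could be named, besides the nearest protein-coding or overlapping genes and the 3 genes of most similar profile. Snhg14, Rn7sk, Rmrp and Rpph1 fall outside this rule and were named after their values were seen. The count of members with a higher mean in ED under each alternative was added after seeing the data, as were the companion counts without single libraries. Labels do not say whether mice were littermates.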

Additional observations from a re-analysis of the deposited data

How the results depend on the processing

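No adjusted call was made in any fit, so none was lost. Pseudocount, rescaling, the filter at a mean of 50, the trend and the block left all 10 directions unchanged. Genes with an unadjusted p under 0.05 numbered 290, against 180 with the filter, which tests fewer genes, 498 without the trend, and 216 to 912 leaving out 1 library. Members under 0.05 numbered 0, against 0 to 5 leaving out 1 library, and members with a higher mean in ED 9, against 4 to 10. Leaving out 1 library gave log2 fold changes of -0.03 to 0.11 for Snhg8, -0.08 to 0.36 for Neat1, -0.06 to 0.31 for Gas5, -0.02 to 0.33 for Snhg5, -0.03 to 0.35 for Snhg12 and -0.29 to 0.10 for Miat. The sign turned without WT replicate 2 for the first 5 of these, without WT replicate 3 for Miat (0.10), without ED replicate 3 for Neat1 (-0.04), and without ED replicate 2 (-0.01) or WT replicate 1 (-0.02) for Snhg8. The cause was not tested.

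Mouse numbers are shared between genotypes by name only. Deviations of same-numbered libraries correlated at -0.0955, 0.0465 and 0.267, and 3 of 6 libraries correlated best with their own number. With a replicate block, 1 member (Malat1, limma adjusted p = 1.00) and 403 genes had an unadjusted p under 0.05. The planned fits with edgeR and DESeq2 were not run because the reads of ED libraries could only be inferred.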

Other observations

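Rn7sk, Rmrp and Rpph1, made by RNA polymerase III without a poly(A) tail, were highest in ED replicate 1, the library with the most Malat1. These 3 were picked after their values were seen, and other transcripts of that polymerase were not examined. Rn7sk had 1782, 147 and 140 normalized reads in ED libraries, against 203, 226 and 174 in WT libraries. Rmrp had 67.5, 5.01 and 9.12 in ED libraries, against 11.8, 23.5 and 9.85 in WT libraries. Rpph1, the RNA of the enzyme that cuts the 3′ end of Malat1, had 38.4, 6.01 and 7.29 in ED libraries, against 7.53, 9.79 and 2.19 in WT libraries. For comparison, Malat1 was at 38600 in that library, against a next highest value of 32217.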
